A study of Mus musculus with 48 samples.

Results

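The liver of A/J mice was compared with that of C57BL/6J mice at time 2, on 6 of the 48 arrays of the series. The 6 arrays were taken by their titles, which name tissue, strain, time and replicate. The comparison itself was chosen with earlier results of these data known. Both strains are inbred, no gene was altered and no treatment is given. Each strain was represented by 3 male mice, littermates of 3 months of age, and about 20 micrograms of Trizol-extracted RNA went into each target. The 48 arrays also cover heart, spleen and lung, and a time 1 for each tissue. The sources used here do not say what the times stand for, how many litters were used or whether a mouse gave more than 1 tissue. A p-value here sets the strain difference against the spread of these 6 mice, and effects of litter and of strain cannot be told apart. All 24 arrays of time 2 carry 1 common code in their scan file names, which no array of time 1 carries, so time and array run cannot be told apart.

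The liver takes up and releases fuels, makes most plasma proteins and clears foreign compounds with cytochrome P450 and conjugating enzymes. In the fasting state PPAR alpha, a nuclear receptor for fatty acids, raises the genes of fatty acid oxidation, while glucocorticoids and glucagon raise those of gluconeogenesis and amino acid breakdown. Inbred strains differ in such programs and also carry fixed alleles that change the level of single transcripts.

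The deposited values were on a log2 scale for 12422 probe sets, each a set of short probes that read 1 or more transcripts. Medians of the 6 arrays were 8.87 to 8.93. Arrays of the same strain correlated at 0.991 to 0.996 over all probe sets and arrays of opposite strains at 0.983 to 0.990, a description that rests on genes and not on replicates. The first principal component held 54.3% of the variance and separated the strains. A/J replicate 2 lay nearest to C57BL/6J on it, at a score of -8.11, against -16.64 and -18.58 for A/J replicates 1 and 3 and 13.03 to 15.85 for the C57BL/6J arrays. Hepatocyte markers averaged 12.94 to 13.18 in each of the 6 arrays, against 8.09 to 9.61 in the arrays of other tissues at time 2. Of 16 hepatocyte markers, 14 did not pass the strain test described below. The 2 that passed, Tat and Tdo2, were lower in A/J. That is 12.5% of the list, near the 10.1% of all probe sets. The strains did not overlap for 8 of the 16, against 33.2% of all probe sets.

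A probe set was called when the Benjamini-Hochberg adjusted p of limma, taken over all 12422 probe sets, was below 0.05. Of the probe sets tested, 1260 were called (10.1%). A/J had the higher level for 433 of them (3.49% of all), and C57BL/6J for 827 (6.66% of all). The values of the strains did not overlap for 4121 probe sets (33.2%). Differences of at least 2-fold were called for 24 probe sets in favour of A/J and 54 in favour of C57BL/6J. The balance of the 2 directions also moved: array weights gave 1699 toward A/J and 1596 toward C57BL/6J, and a fit with the replicate number as a block gave 165 and 466. Across all probe sets the median difference, A/J minus C57BL/6J, was 0.04. The number of calls rested strongly on single arrays. It was 472 without A/J replicate 1 and 1957 without A/J replicate 2, and 579, 594, 789 and 599 without A/J replicate 3 or C57BL/6J replicates 1, 2 or 3.

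**Figure D1:**
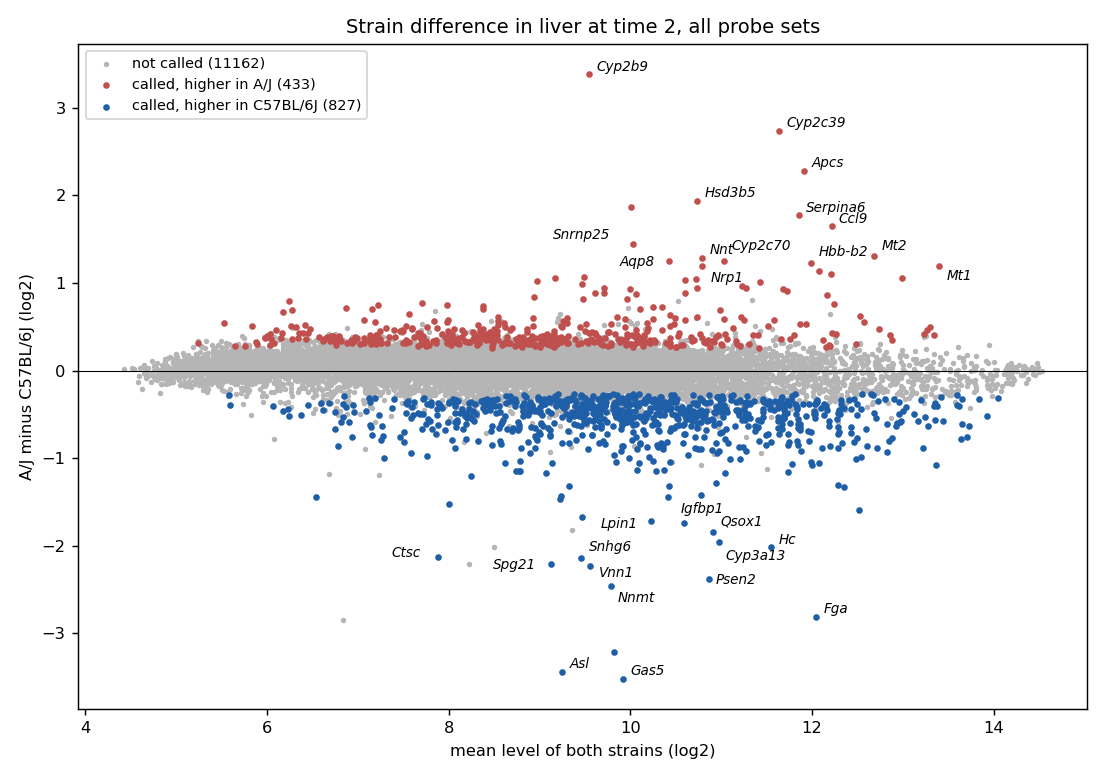
Each point is 1 of 12422 probe sets. The x axis is the mean level of both strains (log2) and the y axis is A/J minus C57BL/6J (log2), with the 433 sets called higher in A/J in red and the 827 called higher in C57BL/6J in blue. Cyp2b9 at 3.38 and Gas5 at -3.51 lie at the ends of the named genes.

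Exocrine pancreas transcripts were checked first, a check of C57BL/6J replicate 2 that came with the choice of this comparison. The pancreas lies beside the liver, and digestive enzymes are among its most abundant RNAs. C57BL/6J replicate 2 had the highest value of the 6 arrays for 15 of 17 measured transcripts, and stood at least 1 log2 unit above all 5 others for 12 of them. Prss2, a trypsinogen, read 13.70 in that array and 7.32 to 7.56 in the other 5. Ctrb1, a chymotrypsinogen, read 14.35 against 10.83 to 11.04, and Cel, a lipase activated by bile salts, 13.22 against 9.75 to 10.01. The mean of the 17 transcripts was 11.55 in this array and 8.99 to 9.25 in the other 5. Such levels were also found outside liver: 5 of the 12 spleen arrays, of both strains and both times, had means of 10.72 to 11.82, while the other 7 had 8.94 to 9.39 and the arrays of heart, lung and liver at time 1 had 8.78 to 9.43.

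None of the 17 transcripts was called by limma. Prss2 differed by -2.01 between the strains with a limma adjusted p of 0.36. Without this array 1 of the 17, Cela1, was called, higher in A/J, and the median of the list moved from -0.87 to 0.11. Over all probe sets, 26 stood at least 1 above the other 5 arrays in C57BL/6J replicate 2, while the other arrays had 0 to 4 such probe sets each. Of the 26, 0 were called. A set that 1 array lifts has a wide spread within its strain (Clps, SD 1.46 in C57BL/6J), which makes a call unlikely. The lack of calls among the 26 and the 17 therefore cannot show whether this array moved other calls. Besides digestive enzymes the 26 included Ins2, an insulin, Sycn, a zymogen granule protein, and Saa2, a serum amyloid. Reg2, Reg3b and Pla2g1b, also pancreatic, read 8.78, 9.51 and 12.19 in this array, close to 8.48 to 8.83, 9.46 to 9.77 and 11.91 to 12.15 in the other 5. Cela1, an elastase, was an exception among the other arrays: it read 12.17 to 12.31 in A/J and 11.11 and 11.09 in C57BL/6J replicates 1 and 3, and 14.33 in replicate 2. How far these transcripts bear on other results of that array was not tested, so the counts of several lists below are also given without it.

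**Figure D2:**
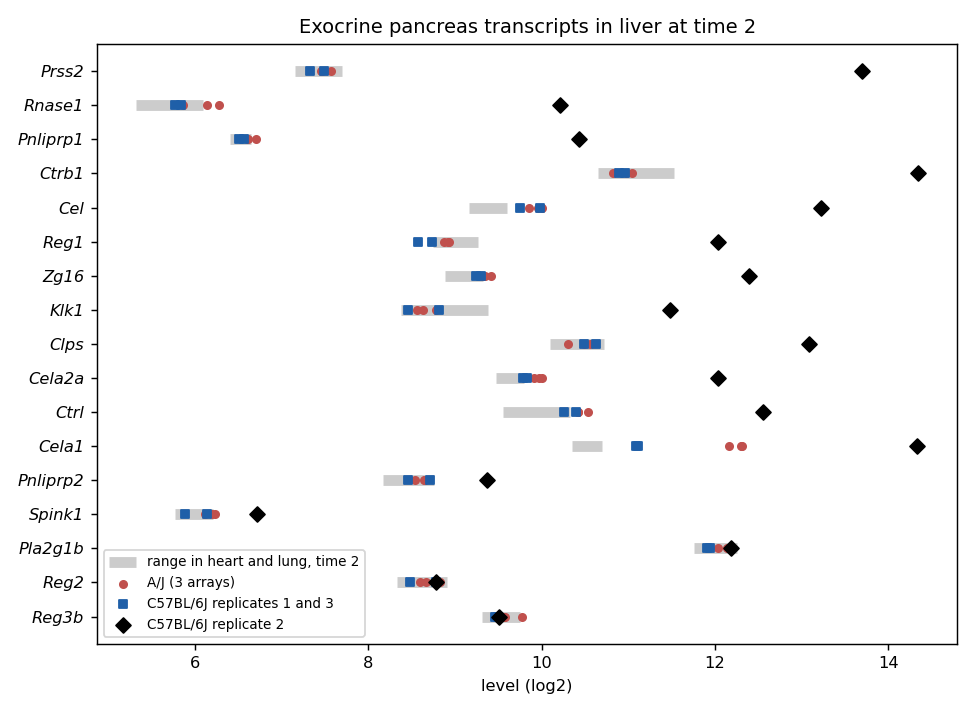
Level (log2) of 17 exocrine pancreas transcripts in the 6 liver arrays of time 2, with the range in heart and lung arrays of time 2 as grey bars; spleen, where 5 of 12 arrays were high, is not drawn. C57BL/6J replicate 2 (black) lies at least 1 above the other 5 arrays for 12 transcripts, from Prss2 to Cela1.

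In each list of markers of another cell type 1 gene at most was called, where 10.1% of all probe sets were. In bulk tissue, fewer cells of a type and less RNA per cell cannot be told apart. Of 13 macrophage markers, Cd5l alone was called (8.23 to 8.75 in A/J, 8.89 to 9.45 in C57BL/6J), and 7 of 14 alternative settings (other arrays in the fit, other scaling, weights or filters; 15 for probe sets that pass the filter on level) ended its call, leaving out C57BL/6J replicate 2 among them. Lyve1, of sinusoidal endothelium, was lower in A/J at -0.65 (SE 0.08, limma adjusted p = 0.00204), and was the only one of 10 endothelial markers called. No stellate cell, bile duct, T and NK cell, neutrophil or adipocyte marker was called. Ighm, the immunoglobulin heavy chain, was higher in A/J by 0.54, while 15 other probe sets of the gene gave -0.10 to 0.37, of which 2 were called. Acta1, of striated muscle, was higher by 0.34, a call that 8 of 14 alternatives ended. All 11 neutrophil markers were higher in A/J by small amounts, and the mean of the list was 8.31 to 8.48 in A/J and 8.22 to 8.26 in C57BL/6J. The strains did not overlap on that mean, and no member passed the test. This lean was not particular to neutrophil markers. All 7 skeletal muscle markers, 9 of 10 T and NK cell markers and 4764 of 8251 genes with 1 symbol were also above 0. Of the macrophage markers 3 of 13 were.

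Among single genes, cytochrome P450 enzymes held the largest differences in favour of A/J. Cyp2b9, an enzyme of the CYP2B family whose expression is higher in female than in male mouse liver, read 11.48, 11.30 and 10.93 in A/J and 7.87, 7.84 and 7.84 in C57BL/6J. The difference was 3.38 (SE 0.13, 10.4-fold, limma adjusted p = 7.02e-07). The C57BL/6J values lie inside the range of the other tissues at time 2 (7.69 to 8.38). Whether that range is the floor of this probe set was not tested. If it is, the fold is a lower bound. Cyp2c39, an enzyme of the CYP2C family that acts on retinoids, read 13.12, 13.11 and 12.79 in A/J and 10.38, 10.17 and 10.26 in C57BL/6J. It was 6.66-fold higher in A/J (2.74, SE 0.11, limma adjusted p = 8.07e-07).

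Of 21 measured P450 genes outside the bile acid and PPAR alpha lists, 6 were called higher in A/J (3.49% of all probe sets were) and 2 were lower (6.66% of all), and the median difference was 0.23. Those higher in A/J were 5 without C57BL/6J replicate 2, and 4 without A/J replicate 1 to 7 without A/J replicate 2. Cyp2c29 (1.03), Cyp2b10 (0.86), Cyp2c38 (0.42) and Cyp1a2 (0.41) made up the rest of those higher in A/J. Cyp2b10 is the classic target of the xenobiotic receptor CAR. Cyp3a13 ran the other way, at 10.17, 10.14 and 9.68 in A/J and 11.97, 11.92 and 11.96 in C57BL/6J (-1.95, SE 0.12, limma adjusted p = 3.71e-05). Cyp17a1, of steroid synthesis, was lower in A/J by 0.99 on the set of higher level, and a dim second set gave -0.13. Members of major drug-metabolizing families did not all pass the test: Cyp3a11 differed by -0.03 and Cyp2e1 by 0.02. Cyp2c70, an enzyme of bile acid hydroxylation in mice that was on none of the lists, was 2.38-fold higher in A/J, at 11.56 to 11.79 against 10.26 to 10.54.

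Several secreted liver proteins were among the largest differences. Apcs, serum amyloid P component, read 13.08, 13.15 and 12.93 in A/J and 10.68, 10.83 and 10.83 in C57BL/6J (2.28, SE 0.09, 4.85-fold, limma adjusted p = 7.02e-07). Serpina6, the corticosteroid-binding globulin of plasma, read 12.71, 12.90 and 12.61 in A/J and 10.94, 10.86 and 11.10 in C57BL/6J. That is 3.42-fold (1.77, SE 0.10, limma adjusted p = 1.44e-05), and a dimmer probe set of Serpina6 was also higher in A/J, by 0.60. Fga, the alpha chain of fibrinogen, was lower in A/J, at 10.62 to 10.65 against 13.39 to 13.49 (-2.81, SE 0.07, limma adjusted p = 7.66e-08). The beta and gamma chains, Fgb and Fgg, differed by 0.01 and -0.02 and were not called. Only 1 probe set of Fga was among those tested, so a difference of the whole transcript and one in the part the probes read cannot be told apart.

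Of 22 acute phase genes, 4 were called toward A/J and 3 toward C57BL/6J, against 3.49% and 6.66% of all probe sets, with a median of -0.07. Beside Apcs, those higher in A/J were Mt1, Mt2 and Saa4 (0.59), and beside Fga those lower were the carrier protein Orm1 (-0.61) and the inhibitor Itih3 (-0.53), so the list did not move one way. Only Fga stayed called lower without A/J replicate 1 or 3 or C57BL/6J replicate 1 or 3; 2 were called without C57BL/6J replicate 2 and 7 without A/J replicate 2. Ccl9, a chemokine, was 3.13-fold higher in A/J, at 12.84 to 13.19 against 11.16 to 11.69. Of 17 complement genes, Hc and C4bp were called (11.8%), near the 10.1% of all probe sets. C4bp, an inhibitor of complement, was higher in A/J by 0.31, a call that all 3 settings without a C57BL/6J array ended, as did leaving out A/J replicate 1 or 3. Of 22 coagulation genes, Fga, F12 and Pros1 were called lower in A/J and Serpind1 higher (18.2%, against 10.1% of all probe sets). F12, coagulation factor XII, read 11.48, 11.72 and 11.47 in A/J and 12.48, 12.61 and 12.72 in C57BL/6J. Pros1 (-0.60) and Serpind1 (0.27) lost their calls in 8 and 10 of 15 alternatives.

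Most PPAR alpha targets were lower in A/J. Of 20 measured targets, 13 were called lower in A/J and 0 higher, where 6.66% of all probe sets were called in that direction, and the median difference was -0.58 against 0.04 for all genes with 1 symbol. The mean of the 20 was 10.89, 11.30 and 11.28 in A/J and 11.88, 11.73 and 11.73 in C57BL/6J, without overlap. Without C57BL/6J replicate 2 the count was 12 and the median -0.59. The lowest counts were 6 without C57BL/6J replicate 1 and 9 without A/J replicate 1.

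Vnn1, a pantetheinase and one of the most responsive PPAR alpha targets of liver, read 7.94, 8.54 and 8.85 in A/J and 10.74, 10.36 and 10.93 in C57BL/6J. It was 4.70-fold lower in A/J (-2.23, SE 0.22, limma adjusted p = 0.000494). Cyp4a14, which hydroxylates fatty acids at the omega end, read 11.31, 12.32 and 11.52 in A/J and 13.42, 13.43 and 13.07 in C57BL/6J (-1.59, SE 0.23, limma adjusted p = 0.00391). A/J replicate 2 was the highest of the A/J arrays, and still below each C57BL/6J array.

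The enzymes of mitochondrial fatty acid oxidation followed with smaller differences. Cpt1a, which makes acylcarnitines for import, read 12.90, 13.18 and 13.14 in A/J and 13.73, 13.60 and 13.57 in C57BL/6J (-0.56, SE 0.09, limma adjusted p = 0.00808). Cpt2, which turns them back inside mitochondria, differed by -0.60 and the carnitine carrier Slc25a20 by -0.65. The dehydrogenases Acadm and Acadl differed by -0.50 and -0.61. The peroxisomal enzyme Ehhadh (-1.06), the thioesterase Acot1 (-1.04), the acetyltransferase Crat (-0.66), the hydroxylase Cyp4a10 (-0.66), the secreted lipase inhibitor Angptl4 (-0.63) and the aldehyde dehydrogenase Aldh3a2 (-0.47) completed the 13. The 7 not called were Plin2 (-0.43), Ppara itself (-0.27), Pdk4 (-0.25), Acaa1a (-0.23), Acaa1b (-0.22), Fabp1 (-0.09) and Cd36 (0.23).

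**Figure D3:**
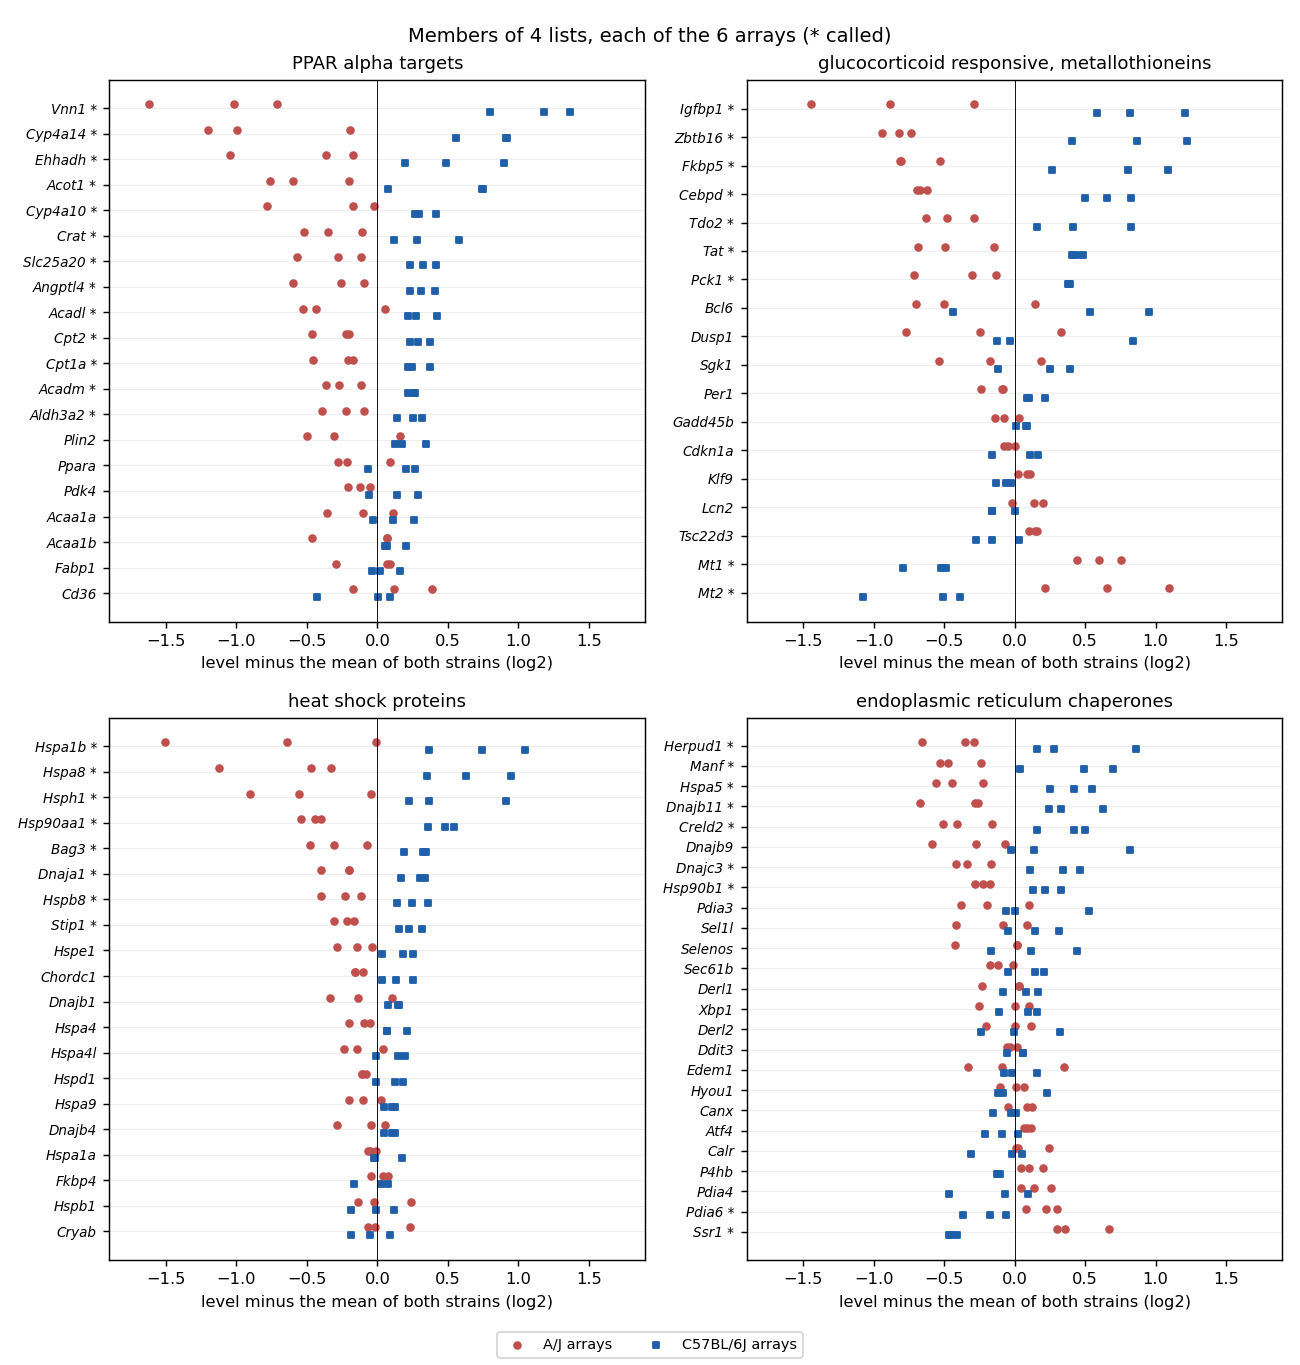
For each member of 4 lists, the x axis gives the level in each of the 6 arrays minus the mean of both strains (log2); A/J arrays are red circles and C57BL/6J arrays blue squares, and an asterisk marks a called gene. The arrays of the strains lie apart for 13 called PPAR alpha targets and 8 called heat shock proteins, while Mt1 and Mt2 run the opposite way to the 7 other called genes of their panel.

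Several genes of gluconeogenesis and amino acid breakdown were also lower in A/J. Of 13 measured, 7 were called lower and 0 higher, against 6.66% of all probe sets called lower, with a median of -0.38 and a count of 6 without C57BL/6J replicate 2. Oat, ornithine aminotransferase, read 11.45, 11.83 and 11.61 in A/J and 12.78, 12.90 and 13.13 in C57BL/6J (-1.30, SE 0.12, limma adjusted p = 0.000376); a dim second set gave 0.02. Pck1, which commits carbon to glucose, read 12.58, 12.75 and 12.17 in A/J and 13.28, 13.27 and 13.26 in C57BL/6J (-0.77, SE 0.13, limma adjusted p = 0.00845). The C57BL/6J arrays lay close together and each A/J array lay below them. Fbp1, a later step of the same route, differed by -0.57, Pcx, the first step, by -0.38, and G6pc, the last, by -0.17 without a call. Tat and Tdo2, which open the breakdown of tyrosine and tryptophan, differed by -0.88 and -0.93, and Hal, of histidine breakdown, by -0.72.

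In the urea cycle 2 of 6 genes were called, both lower in A/J, where 6.66% of all probe sets were. Asl, argininosuccinate lyase, read 7.62, 7.41 and 7.57 in A/J and 11.23, 11.06 and 10.62 in C57BL/6J, a difference of -3.44 (SE 0.14, limma adjusted p = 1.19e-06). A second probe set of Asl differed by 0.19 and was not called, so the difference rests on what 1 probe set reads. Arg1, the last enzyme, differed by -0.52, but 9 of 15 alternatives ended its call. Cps1, Otc and Ass1 differed by -0.09, -0.10 and 0.14.

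Genes known to respond to glucocorticoids split into a lower and a higher group. Of 18 measured members, 7 were called lower in A/J and 2 higher, against 6.66% and 3.49% of all probe sets, and the median was -0.41. Leaving out any 1 array gave 7 or 8 lower and 2 higher. Pck1, Tat and Tdo2 stand in this list and in the one before. Fkbp5, a co-chaperone of the glucocorticoid receptor, read 9.61, 9.88 and 9.60 in A/J and 11.22, 11.50 and 10.68 in C57BL/6J (-1.44, SE 0.18, limma adjusted p = 0.00227). Zbtb16, a zinc finger repressor, read 8.65, 8.73 and 8.53 in A/J and 10.34, 10.69 and 9.88 in C57BL/6J (-1.67, SE 0.17, limma adjusted p = 0.000738), on 1 of 2 probe sets, the other giving 0.02. Cebpd, a transcription factor of the C/EBP family, was 2.50-fold lower in A/J, at 8.63 to 8.70 against 9.82 to 10.15. Igfbp1, a secreted binding protein for insulin-like growth factors that insulin lowers, read 9.71, 10.30 and 9.14 in A/J and 11.80, 11.41 and 11.17 in C57BL/6J (-1.74, SE 0.26, limma adjusted p = 0.00477).

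The metallothioneins ran the other way. Mt1 read 13.84 to 14.16 in the A/J arrays and 12.61, 12.91 and 12.88 in C57BL/6J, 2.29-fold higher in A/J (log2 difference 1.198, SE 0.11, limma adjusted p = 0.000375). Mt2 read 13.78, 12.90 and 13.34 in A/J and 11.61, 12.18 and 12.30 in C57BL/6J, 2.48-fold higher (1.31, SE 0.23, limma adjusted p = 0.00884). These small proteins bind zinc and copper, and their genes respond to metals as well as to glucocorticoids. The other 9 members were not called. Among them Per1 (-0.27), Klf9 (0.15) and Tsc22d3 (0.27) had no overlap between the strains, while Sgk1 (-0.35) and Dusp1 (-0.46) overlapped. Of all probe sets 33.2% had no overlap.

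Some genes of lipid synthesis were called higher in A/J. Srebf1, the transcription factor SREBP1, read 12.22, 12.23 and 11.98 in A/J and 11.04, 11.20 and 11.40 in C57BL/6J (0.93, SE 0.11, limma adjusted p = 0.00156). Thrsp, a cofactor of lipogenesis, differed by 0.70 and Fads1, a desaturase, by 0.51. These were 3 of 12 fatty acid synthesis genes, against 3.49% of all probe sets called higher in A/J, with none called lower. Fasn (0.35), Scd1 (-0.04), Acly (0.07) and Me1 (-0.01) were not called, and the median was 0.07. Of 17 cholesterol synthesis genes, 15 were above 0, where 4764 of 8251 genes with 1 symbol were. Called were 2, both higher in A/J and both late steps. That is 11.8% of the list, near the 10.1% of all probe sets called in either direction (3.49% higher in A/J). Nsdhl read 11.48, 10.88 and 11.24 in A/J and 10.29, 10.05 and 10.45 in C57BL/6J (0.94, SE 0.15, limma adjusted p = 0.0070), and its other probe sets gave 0.88 and 0.63. Dhcr7 differed by 0.83. The list's mean was 10.25 to 10.39 in A/J and 9.82 to 10.22 in C57BL/6J; its calls higher in A/J were 5 without C57BL/6J replicate 3 and 4 without A/J replicate 2, and without C57BL/6J replicate 2 Ebp was called lower.

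In bile acid handling 4 of 11 genes were called, all lower in A/J, where 6.66% of all probe sets were, with a median of -0.37. Abcb4, the canalicular phospholipid transporter, read 11.90, 12.07 and 12.26 in A/J and 13.01, 12.69 and 12.66 in C57BL/6J. Cyp8b1, the sterol 12-hydroxylase, differed by -0.40, Cyp7b1, of the alternative route, by -0.87, and Abcc2, a canalicular exporter, by -0.83. The count was 2 without A/J replicate 1 or C57BL/6J replicate 3. Cyp7a1, the rate-limiting enzyme of the classic route, differed by -0.45 and was not called. In lipoprotein handling, Scarb1, the HDL receptor, was higher in A/J (12.79 to 12.92 against 12.25 to 12.35), and Pltp, a phospholipid transfer protein, was lower (9.69 to 10.17 against 10.64 to 10.92).

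Several heat shock proteins were lower in A/J. Of 20 measured, 8 were called lower and 0 higher, against 6.66% of all probe sets, and the median was -0.26; the count was 6 without C57BL/6J replicate 2, and 6 to 9 without any 1 array. Hspa8, the constitutive HSP70 of the cytosol, read 9.82, 10.61 and 10.47 in A/J and 11.29, 11.89 and 11.58 in C57BL/6J (-1.28, SE 0.21, limma adjusted p = 0.00668). Hsp90aa1, the inducible HSP90, read 10.83, 10.73 and 10.87 in A/J and 11.75, 11.82 and 11.63 in C57BL/6J (-0.92, SE 0.08, limma adjusted p = 0.000325). Both separated the strains. The HSP70 partners Dnaja1 (-0.54), Hsph1 (-1.003), Bag3 (-0.57) and Stip1 (-0.46) were called as well, as was the small heat shock protein Hspb8 (-0.50). The inducible Hspa1b differed by -1.44, while its near copy Hspa1a differed by -0.08, and how the probe sets share the transcripts of this pair was not checked. The mitochondrial chaperones Hspe1, Hspd1 and Hspa9 differed by -0.31, -0.20 and -0.18, without a call.

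Chaperones of the endoplasmic reticulum, where secreted proteins fold, divided by member. Of 25 measured, 7 were called lower in A/J and 2 higher, against 6.66% and 3.49% of all probe sets, and the median was -0.11. Leaving out any 1 array gave 6 or 7 lower and 1 or 2 higher. Hspa5, the main HSP70 of that compartment (BiP), read 11.90, 12.23 and 12.01 in A/J and 12.88, 12.71 and 13.01 in C57BL/6J (-0.82, SE 0.11, limma adjusted p = 0.00295). Its partners Dnajb11 (-0.80) and Dnajc3 (-0.61), the HSP90 of the compartment Hsp90b1 (-0.45), the disposal factor Herpud1 (-0.87), and Manf (-0.82) and Creld2 (-0.72), both secreted stress proteins, were lower too. Ssr1, a subunit of the translocon, read 10.07, 10.38 and 10.01 in A/J and 9.26, 9.30 and 9.25 in C57BL/6J, and Pdia6, a disulfide isomerase, differed by 0.40, a call that remained in 1 of the 6 fits without an array (that without C57BL/6J replicate 3). Xbp1, Ddit3 and Atf4, the transcription factors of the stress response of this compartment, differed by -0.10, -0.05 and 0.18.

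Promoters were searched for the motif through which each of these responses is known to act. The windows were the 250 bases before each start site in RefSeq, build GRCm38.p6, which is C57BL/6J sequence; A/J sequence was not used here. The endoplasmic reticulum stress element, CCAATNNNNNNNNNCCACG on either strand, was found for 35 of 27025 genes (0.13%), and for 7 of the 22 chaperone genes of that compartment with a window. It stood in 4 of 6 members called lower (Hspa5, Hsp90b1, Dnajc3 and Creld2), in 2 of 14 not called (Canx and Calr) and in 1 of 2 called higher (Pdia6, whose call was seldom kept). The heat shock element unit GAANNTTC was found for 2088 of the 27025 genes (7.73%) and for 7 of 16 heat shock genes with a window: 2 of 6 called lower and 5 of 10 not called. For PPAR alpha, the direct repeat of AGGTCA with 1 base between its copies was found for 11 of 27025 genes and for 0 of 15 targets, which says only that these letters are not in these windows. A match is a description of the sequence, and binding was not measured. The windows below are those of members called lower in A/J that held a match, and that of Pdia6 is not shown. They are written 5′ to 3′ toward the start site, with the matched element in capitals.
Hspa5, chr2:34771840-34772089, plus strand: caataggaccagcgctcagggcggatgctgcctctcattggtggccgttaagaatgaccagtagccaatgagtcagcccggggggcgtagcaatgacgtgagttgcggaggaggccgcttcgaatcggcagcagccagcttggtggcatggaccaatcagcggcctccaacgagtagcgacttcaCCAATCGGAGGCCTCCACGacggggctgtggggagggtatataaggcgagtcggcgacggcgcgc
Hsp90b1, chr10:86705445-86705694, minus strand: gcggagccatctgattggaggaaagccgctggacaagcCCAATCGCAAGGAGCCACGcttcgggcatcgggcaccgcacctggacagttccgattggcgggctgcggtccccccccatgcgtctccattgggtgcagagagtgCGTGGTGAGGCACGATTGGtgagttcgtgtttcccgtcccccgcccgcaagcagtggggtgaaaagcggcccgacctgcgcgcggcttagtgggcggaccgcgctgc
Dnajc3, chr14:118937682-118937931, plus strand: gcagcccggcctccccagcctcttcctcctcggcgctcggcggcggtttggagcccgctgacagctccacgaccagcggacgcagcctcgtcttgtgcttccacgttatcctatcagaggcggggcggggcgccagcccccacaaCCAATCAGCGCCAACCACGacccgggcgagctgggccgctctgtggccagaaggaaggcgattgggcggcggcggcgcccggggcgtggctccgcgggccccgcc
Creld2, chr15:88819396-88819645, plus strand: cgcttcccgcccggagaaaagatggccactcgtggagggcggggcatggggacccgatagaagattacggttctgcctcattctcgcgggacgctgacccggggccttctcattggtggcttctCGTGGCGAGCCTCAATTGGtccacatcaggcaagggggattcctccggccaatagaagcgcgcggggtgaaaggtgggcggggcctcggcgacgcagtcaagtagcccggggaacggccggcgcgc
Dnaja1, chr4:40722218-40722467, plus strand: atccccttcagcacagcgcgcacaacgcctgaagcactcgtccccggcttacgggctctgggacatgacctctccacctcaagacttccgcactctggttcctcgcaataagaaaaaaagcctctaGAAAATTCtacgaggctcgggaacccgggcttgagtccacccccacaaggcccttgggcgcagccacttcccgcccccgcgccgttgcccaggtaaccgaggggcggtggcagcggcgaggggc
Hspa1b, chr17:34959239-34959488, minus strand: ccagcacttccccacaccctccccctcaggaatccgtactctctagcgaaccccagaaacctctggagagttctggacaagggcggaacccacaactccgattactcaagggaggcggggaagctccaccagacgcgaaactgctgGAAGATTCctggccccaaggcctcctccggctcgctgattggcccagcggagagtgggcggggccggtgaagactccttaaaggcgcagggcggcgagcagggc

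Hsp90b1 held 2 matches of the element and Hspa5, Dnajc3 and Creld2 held 1 each. Hsp90b1 had the smallest difference of the 4, at -0.45, against -0.82, -0.61 and -0.72.

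Genes of the proteasome and the respiratory chain differed by small amounts. Of 30 proteasome subunits 28 were below 0, where 3487 of 8251 genes with 1 symbol were. Called lower in A/J were 8 (26.7%), against 6.66% of all probe sets, with a median of -0.24. The count was 3 or 4 without any 1 array other than A/J replicate 2, and 11 without that one. Psmd4, a ubiquitin receptor of the proteasome, differed by -0.64 (11.46 to 11.62 in A/J, 12.07 to 12.28 in C57BL/6J), and Psmc1, an ATPase of its cap, by -0.45. Psmb5, a catalytic subunit, differed by -0.78 on 1 probe set and 0.11 on another. Of 50 oxidative phosphorylation genes 8 were called lower (16%, against the same 6.66%). This count fell to 1 without A/J replicate 1, A/J replicate 3 or C57BL/6J replicate 3. It was 2 and 4 without C57BL/6J replicates 1 and 2, and 14 without A/J replicate 2. Ndufa6, of complex I, kept its call in each alternative tried (9.57 to 9.72 in A/J, 10.13 to 10.31 in C57BL/6J). Of 26 cytosolic ribosomal proteins only Rpl13a was called, at -0.52.

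**Figure D4:**
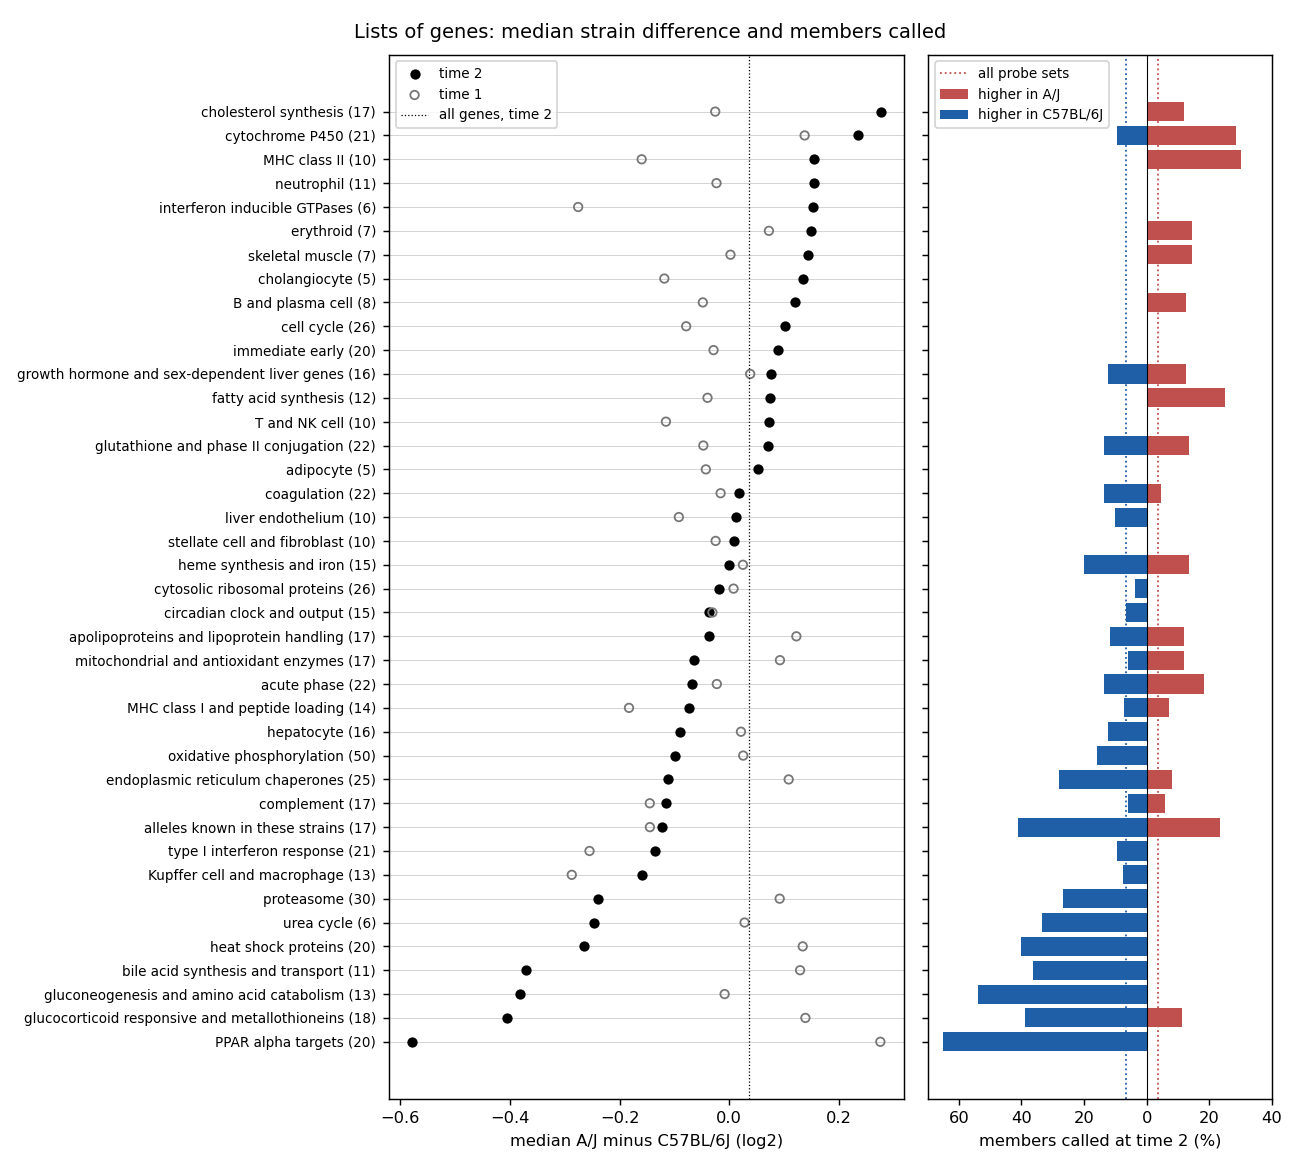
For each list of genes, exocrine pancreas left out, with the number of measured members in brackets, the left panel gives the median strain difference (A/J less C57BL/6J, log2) at time 2 (filled) and time 1 (open), and the right panel the percent of members called in each direction at time 2, with dotted lines for all probe sets (3.49% and 6.66%). PPAR alpha targets have a median of -0.58 at time 2 and 0.28 at time 1.

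Of 21 type I interferon response genes, 2 were called (9.52%), near the 10.1% of all probe sets. Rsad2 and Irf9 differed by -0.63 and -0.44, and the median was -0.14. Irf9 lost its call in each fit without an array other than A/J replicate 2, which left 1 call. None of 6 interferon-inducible GTPases was called; Igtp read 9.16, 10.31 and 9.17 in A/J and 8.88 to 9.09 in C57BL/6J, so that A/J replicate 2 alone was high. Irgm2 had the same array on top, at 10.997 against 10.16 to 10.42 in the other 5. Among 14 class I genes, H2-Q10, a liver-specific class I molecule, was lower in A/J by 0.33 and Tap2, a peptide transporter, was higher by 0.30, calls that 7 and 9 of 15 alternatives ended. Of 10 class II genes, 3 were called higher in A/J, against 3.49% of all probe sets: H2-Ea by 0.37, H2-Ob by 0.42 and Ciita by 0.29. None was called without A/J replicate 1 or 3 or C57BL/6J replicate 2, and 1 without C57BL/6J replicate 1 or 3. C57BL/6J is known not to express H2-Ea, whose values here were 8.40 to 8.52 in A/J and 8.04 to 8.19 in C57BL/6J. No immediate early gene of 20, no cell cycle gene of 26, and of 15 clock genes only Rora (-0.52) was called. Rora lost its call in 6 of 15 alternatives, among them each fit without an array other than A/J replicate 2.

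Genes with alleles known or shown to differ between these strains were also read. Of 17 measured, 4 were called higher in A/J and 7 lower, against 3.49% and 6.66% of all probe sets. This list was written with earlier results known and is no independent evidence. Hc, complement component C5, which A/J mice are known to lack in plasma because of a frameshift, read 10.56, 10.69 and 10.37 in A/J and 12.63, 12.41 and 12.63 in C57BL/6J. Nnt, the mitochondrial transhydrogenase, in which C57BL/6J carries a deletion of several exons, read 11.44, 11.54 and 11.33 in A/J and 10.08, 10.20 and 10.17 in C57BL/6J; which exons the probe set reads was not checked. Glo1, glyoxalase 1, read 13.51 to 13.52 in A/J and 12.30 to 12.68 in C57BL/6J, and both of its probe sets gave differences of like size (1.05 and 1.097). Nnmt, which methylates nicotinamide, read 8.43 to 8.63 in A/J and 10.88 to 11.10 in C57BL/6J, a difference of -2.45. Psen2, a subunit of gamma-secretase, differed by -2.38. Ahr, the dioxin receptor, was lower in A/J by 0.94, and Ces1c, a plasma carboxylesterase, by 0.74. Apoa2, Cox7a2l, Mx1, Klrd1, Ahrr and Fgf5 were not called.

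The largest difference toward C57BL/6J was that of Gas5, a host transcript of small nucleolar RNAs. It read 8.35, 8.10 and 8.03 in A/J and 11.63, 11.62 and 11.78 in C57BL/6J (-3.51, SE 0.10, limma adjusted p = 1.11e-07). Its other probe sets gave -0.07 and 0.03 at lower levels. Snhg6, another such host transcript, was 4.40-fold lower in A/J, at 8.36 to 8.41 against 10.42 to 10.69. Ctsc, a cysteine protease that activates granule enzymes, differed by -2.12 on 1 probe set and by -0.24 and -0.32 on the others. Qsox1, a sulfhydryl oxidase, differed by -1.85, and its other sets by -0.35 and 0.09. Of the genes read by several probe sets, 32 had all sets called in the same direction, 351 had some called, and 4 had calls in both directions.

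The remaining genes with large differences were of mixed function. Higher in A/J were Hsd3b5, a steroid-metabolizing enzyme that is higher in male mice (11.28, 11.80 and 12.03 against 9.52, 9.16 and 10.63), the water channel Aqp8 (1.25), the spliceosome protein Snrnp25 (1.44), the semaphorin receptor Nrp1 (1.19 and 1.06 on its probe sets) and the globin Hbb-b2 (1.22). Hbb-b2 is also on the list of genes with alleles known or shown to differ between these strains. It was the only one called of 7 erythroid markers, of which 6 were above 0. Slc4a1 (0.32, limma adjusted p = 0.0548) and Alas2 (0.24) had no overlap between the strains, as 33.2% of all probe sets had none. Hba-a1 differed by -0.05 and Klf1 by 0.04. With genes read by the mean of their probe sets, 2 erythroid markers were called higher. Spg21, a protein linked to hereditary spastic paraplegia, differed by -2.204, and Lpin1, a phosphatidate phosphatase and coactivator of PPAR alpha, read 9.53, 9.28 and 9.29 in A/J and 10.96, 11.76 and 10.53 in C57BL/6J (-1.71, SE 0.25, limma adjusted p = 0.00452).

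Alad, of heme synthesis, was higher in A/J, at 12.56 to 12.80 against 11.32 to 11.71, and Alas1, the rate-limiting enzyme, was lower by 0.64, a call that 9 of 15 alternatives ended. Hfe, an iron regulator, was lower by 0.60. Of 22 genes on the glutathione and conjugation list, 3 were called higher in A/J and 3 lower, against 3.49% and 6.66% of all probe sets. The median was 0.07. Gstm6 (0.58), Gsta4 (0.62) and Tpmt (0.81) were higher, and Nnmt (-2.45) and Ephx1 (-0.67) were among the lower. Without C57BL/6J replicate 2 the counts were 2 and 2, and Tpmt lost its call. Prdx3, a mitochondrial peroxidase, was lower by 0.50.

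At time 1 the liver strain comparison called 344 probe sets (2.77%). Of the 1260 called at time 2, 146 were called in the same direction at time 1, which is 11.6% of the time 2 calls and 42.4% of the time 1 calls. A further 24 were called in the opposite direction, all of them higher in C57BL/6J at time 2. The sign was shared by 55.5% of the time 2 calls and by 44.8% of all probe sets. The strain difference was unequal at the 2 times for 609 probe sets (4.90%), in a test of the strain by time term over the 12 liver arrays, and 332 of the 827 called higher in C57BL/6J were among them, against 83 of the 433 called higher in A/J. Since each time is also its own array run, these departures cannot be told apart from effects of the run.

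The PPAR alpha targets were among those that departed. At time 1, 3 of the 20 were called higher in A/J (Acot1, Ppara and Acaa1a) and 0 lower, and the median was 0.28. Of all probe sets 2.77% were called at time 1, in either direction. The strain by time term was called for 17 of 20, each more negative at time 2, against 4.90% of all probe sets. Acot1 differed by 0.92 at time 1 and -1.04 at time 2. The mean of the 20 targets in A/J was 11.99, 12.09 and 12.004 at time 1 and in C57BL/6J 11.64, 11.77 and 11.66, the reverse order of time 2. Heat shock proteins had 9 such departures of 20, against the same 4.90%. The glucocorticoid list had 9 more negative and 1 more positive (Mt1) of 18. Serpina6 differed by 0.04 at time 1 and 1.77 at time 2, and Cebpd by -0.01 and -1.32.

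Among genes chosen by the smallest p of that term, Cyp2b9 differed by 0.60 at time 1 and 3.38 at time 2 and Hsp90aa1 by 0.54 and -0.92. Lpin2, a phosphatidate phosphatase, Hsdl2, a peroxisomal protein, and Sec23a, of the vesicle coat, differed by 0.10, 0.78 and 0.32 at time 1 and by -1.42, -0.79 and -0.65 at time 2. Other large differences had like values at both times: Nnmt gave -2.58 and -2.45, Cyp2c39 2.61 and 2.74, Hc -2.35 and -2.02 and Qsox1 -1.79 and -1.85, and the term was not called for these 4.

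**Figure D5:**
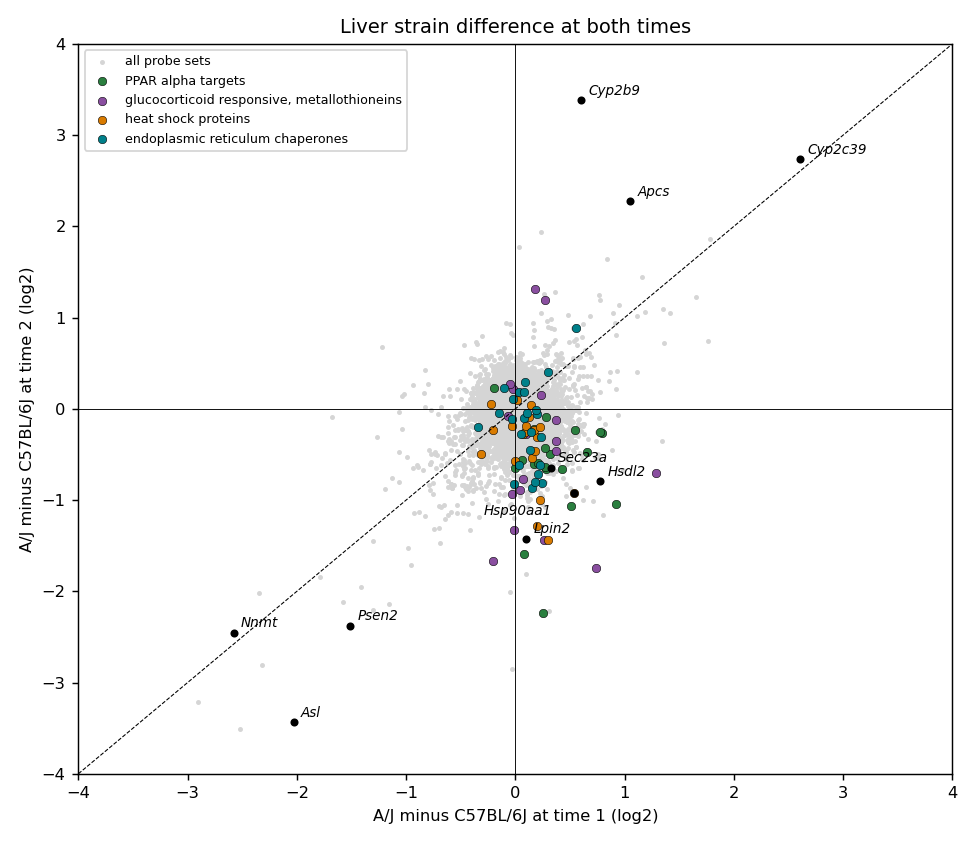
Each point is a probe set; the x axis is A/J minus C57BL/6J at time 1 and the y axis the same at time 2 (log2), with a dashed line of equality. Cyp2c39 and Nnmt lie near the line, while PPAR alpha targets such as Acot1 (0.92 and -1.04) lie below 0 at time 2 and above it at time 1.

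In the other tissues at time 2 the strain comparison called 500 probe sets in heart (4.03%), 1108 in spleen (8.92%) and 442 in lung (3.56%). Of the liver calls, 115 were shared in the same direction with heart, 111 with spleen and 78 with lung, which are 9.13%, 8.81% and 6.19% of the liver calls and 23%, 10.02% and 17.65% of the calls in those tissues; 21, 78 and 34 were called in the opposite direction. Called alike in all 4 tissues were 29 probe sets of 25 genes. Among them were Gas5 (-2.83, -3.52 and -2.80 in heart, spleen and lung), Snhg6 (-2.21, -2.09 and -1.38), Spg21 (-1.57, -1.86 and -0.94), Glo1 (1.65, 2.28 and 1.97), Alad (1.22, 3.65 and 1.34) and Nnt (0.67, 0.58 and 0.81).

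Fkbp5 and Zbtb16 belonged to this shared group, with -0.95, -0.76 and -0.996 for Fkbp5 and -1.69, -1.25 and -1.59 for Zbtb16 in heart, spleen and lung. Mt1 differed by 1.198 in liver and -0.70 in heart, and the liver difference departed from that of heart by 1.89 (limma adjusted p = 2.42e-05), spleen by 1.12 and lung by 1.41. Vnn1 differed by -0.04, -0.18 and -0.87 in heart, spleen and lung, and its liver difference departed from each (by -2.19, -2.05 and -1.36, limma adjusted p at most 0.00107). Cpt1a, at -0.07, -0.03 and -0.01 in the same tissues, departed by -0.50, -0.53 and -0.55. Acadm did not depart from heart (-0.38, limma adjusted p = 0.311). Of the 20 PPAR alpha targets, 4 were called lower in A/J and 0 higher in heart, 2 and 2 in spleen, and 2 and 1 in lung. Called in either direction were 4.03%, 8.92% and 3.56% of all probe sets in these tissues. By the test of liver against each other tissue, the 6 genes with the strongest departure were Asl, Cyp2c39, Cyp2b9, Nnmt, Apcs and Psen2. Their smallest difference between liver and another tissue was -3.40, 2.66, 3.24, -2.06, 1.83 and -1.91. Their values in the other tissues lay between 6.64 and 10.27.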

How the data were processed

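The authors deposited 1 table of log2 expression values for 48 Affymetrix MG-U74Av2 arrays; the summary and normalization methods are not given in the sources used here. Of 12488 probe sets, 66 controls were left out. GEO's platform annotation gave 1 gene symbol for 10833 of those tested, several for 396, and did not list 1193. Strains were compared with limma 3.58.1 in R 4.3.3 (lmFit and eBayes, 6 arrays), with p-values adjusted by Benjamini-Hochberg over 12422 probe sets. Differences are A/J minus C57BL/6J on the log2 scale, with the SE of limma. Time 2 was set against time 1 by an interaction contrast over 12 liver arrays, and liver against the other tissues by the same over 24 arrays. The precision is limited by 3 arrays a strain.

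In a list a gene is read by its probe set of highest mean level. Named were the 14 genes a direction of largest called difference, up to 5 called members a list by p (2 of smallest p where none was called, all members of lists of up to 8), the allele list, and 6 genes each for the time and tissue contrasts; 1 gene of the time contrast is not reported here. Other members are named to complete a count or to give a value beside it, after their values were seen. The comparison, members and lists were chosen with earlier results of these data known. Simulated data had independent normal noise for each probe set, no deviation shared across an array, and 200 of 12422 probe sets changed. On these the test recovered 92% of probe sets changed by 1 and 61% of those changed by 0.5 in the strain comparison, and 86% and 53% in the time contrast. Recovery in the real data can differ. Same-numbered arrays did not deviate together (correlations 0.01, -0.11 and -0.17), so the numbers were not taken as pairs. Alternatives were the arrays in the fit, the replicate block, each array left out, quantile normalization, centring, a filter on level, the variance model and array weights. Promoter windows came from RefSeq.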

Additional observations from a re-analysis of the deposited data

Results flagged for a closer look

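By limma's interaction contrast (adjusted p below 0.05), 50 of the named genes had an unequal strain difference at the 2 times. Over all probe sets the share was 4.90%. Genes were named in part for their strain difference at time 2, and 6 by this same contrast. The count of 50 therefore follows in part from the choice of genes and is no independent evidence. Each value below is the difference (A/J minus C57BL/6J, log2) at time 2 minus that at time 1, and time cannot be told apart from array run.

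Of the P450 and secreted protein genes, Cyp2b9 gave 2.78, Serpina6 1.74, Apcs 1.23, Ccl9 0.81, Cyp17a1 -1.13 and Fga -0.50. Other genes of large difference were Nnt at 0.92, Aqp8 at 0.99, Gas5 at -0.998, Asl at -1.41, Psen2 at -0.87, Snhg6 at -0.98 and Gstm6 at 0.80. H2-Ob gave 0.53.

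In fat oxidation Vnn1 gave -2.48, Cyp4a14 -1.67, Cpt2 -0.81, Acadm -0.81 and Cpt1a -0.62. In gluconeogenesis and among glucocorticoid-responsive genes, Igfbp1 gave -2.49, Fkbp5 -1.70, Zbtb16 -1.46, Cebpd -1.31, Tat -0.93, Tdo2 -0.91 and Pck1 -0.84, while Mt1 gave 0.93. Genes of lipid synthesis went the other way, with Thrsp at 1.17, Nsdhl at 1.03, Srebf1 at 0.98 and Dhcr7 at 0.88. Genes of bile acid and lipoprotein handling gave -1.72 for Apoa4, -1.37 for Cyp7b1, -1.06 for Abcb4 and -0.76 for Cyp8b1.

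Of the chaperones, Hspa8 gave -1.49, Hsp90aa1 -1.46, Dnaja1 -0.69, Stip1 -0.64, Bag3 -0.57, Hspa5 -1.06, Dnajb11 -0.98 and Creld2 -0.92. The proteasome subunits Psmd4, Psma7 and Psmc1 gave -0.72, -0.56 and -0.49. Hsdl2 gave -1.57, Lpin2 -1.52 and Sec23a -0.97.

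By limma's contrasts over 24 arrays, 49 named genes had a strain difference in liver at time 2 that departed in 1 direction from that of each of heart, spleen and lung (adjusted p below 0.05 in each). The value given is the smallest of the 3 departures (liver minus the other tissue, log2).

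Among P450 and conjugating enzymes, Cyp2b9 departed by 3.24, Cyp2c39 by 2.66, Cyp2c29 by 0.85, Cyp2c70 by 0.84, Tpmt by 0.72, Gstm6 by 0.51, Cyp3a13 by -1.35, Cyp17a1 by -0.68 and Nnmt by -2.06. For secreted proteins the values were 1.83 for Apcs, 1.71 for Serpina6, 1.54 for Ccl9, 0.52 for Saa4, -2.53 for Fga, -1.48 for Hc, -0.87 for F12, -0.86 for Apoa4, -1.56 for Igfbp1 and -0.51 for Ces1c. In fat oxidation they were -1.36 for Vnn1, -1.34 for Cyp4a14, -0.54 for Cpt2 and -0.4954 for Cpt1a, and in lipid synthesis and its regulation 0.76 for Nsdhl, 0.60 for Srebf1, -1.45 for Lpin1 and -1.15 for Lpin2.

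Genes of amino acid, glucose and bile acid metabolism gave -3.40 for Asl, -1.18 for Oat, -0.73 for Tat, -0.64 for Tdo2, -0.61 for Pck1, -0.78 for Cyp7b1 and -0.67 for Abcb4. The chaperones Hspa8 and Hspa5 gave -1.34 and -0.93 and the proteasome subunit Psmd4 -0.42. The remaining genes were Hsd3b5 (1.78), Aqp8 (1.199), Mt1 (1.12), Snrnp25 (0.93), Nnt (0.47), Psen2 (-1.91), Ahr (-1.04), Sec23a (-0.67), Hsdl2 (-0.62), Glo1 (-0.60) and Alas1 (-0.55).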

How the results depend on the processing

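The comparison called 433 probe sets toward A/J and 827 toward C57BL/6J. Leaving out 1 array gave 111 to 830 and 361 to 1127; 830 and 1127 both came without A/J replicate 2, and 111 and 361 without A/J replicate 1. The replicate block gave 165 and 466, of which 159 and 461 were shared with the fit without it, and no array correlated best with its own number. Array weights, from 0.44 for A/J replicate 2 to 3.50 for A/J replicate 1, gave 1699 and 1596. The remaining settings (24 arrays of time 2, 12 liver arrays, quantile normalization, centring, levels above the median, variance trend) gave 338 to 621 and 729 to 977. Leaving out both replicates 2, chosen after seeing the data, gave 453 and 865. The share of calls higher in C57BL/6J was 65.6%, and 48.4% with array weights to 76.5% without A/J replicate 1. No named call changed sign. Of 112 named and called probe sets, 77 kept their call under each setting that could read them and 35 lost it under at least 1, 90 remaining without C57BL/6J replicate 2. The time contrast called 609, with 825 over 48 arrays and 428 without C57BL/6J replicate 2. The cause of these changes was not tested. With 3 arrays a strain, differences of 0.5 were often missed in the simulation (61% recovered). Reading genes by the mean of their probe sets left 12 PPAR alpha targets called lower.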
